A study of Mus musculus with 2 samples.

Results

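The Hox genes of the HoxA, HoxB, HoxC and HoxD clusters were followed in mouse intestinal RNA, in animals labelled with a gut-specific Gpcpd1 deficiency and in animals labelled wild type. Members were all gene probes of the array whose gene name in the scanner output was Hox, a cluster letter a to d and a number. This gave 51 probes of 41174, for 38 genes among 26582 different gene names. Of these genes 11 lay in HoxA, 10 in HoxB, 8 in HoxC and 9 in HoxD, and Hoxc11 was not analysed here. The rule reads gene names and no measured value, although it was set with earlier results of these data known.

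RNA came from the intestine of male C57BL/6 mice, 20 weeks old and fed a normal diet, either wild type or deficient in the gut for GDE5, the glycerophosphodiesterase that Gpcpd1 encodes. The series text speaks of 5 mice. Neither the intestinal segment, the driver of the gut-specific deletion, the deleted part of the gene nor any pooling of animals is given in the sources used here. Each of 2 dual-colour Agilent arrays held RNA of both genotypes, with the RNA labelled knockout in Cy3 in replicate 1 and in Cy5 in replicate 2.

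Hox genes encode homeodomain transcription factors, which bind DNA through a conserved helix and tell cells where along the head-to-tail axis they lie. Within a cluster the genes are ordered along the chromosome as their expression domains are ordered along the body, from low-numbered genes that act in the hindbrain and pharynx to high-numbered genes that act in the hindgut, limbs and genital tract. Genes with the same number in different clusters are paralogues, which arose when an ancestral cluster was duplicated. In the gut, Hox genes are best known from the mesenchyme and the enteric nervous system, and the posterior genes from the hindgut and anorectal region, while Cdx1 and Cdx2, which descend from a sister cluster called ParaHox, pattern the intestinal epithelium. Polycomb complexes keep Hox genes silent outside their domains.

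Since paralogues are alike, the probes were first compared with each other. Of the 1275 pairs of Hox probes, 3 matched at 65% or more of their bases over at least 25 aligned bases, and 2 of these pairs join 3 group 13 probes that lie in the conserved homeobox. The third pair joins detected probes and is not described here. The 3 probes are shown because a signal of one paralogue could come close to another there, and because they read the hindgut end of the clusters. Capitals mark bases identical to the partner in the ungapped alignment, where Hoxa13 and Hoxb13 are set against each other, and Hoxd13 against Hoxa13. Coordinates are those of the array design on mm9.
Hoxa13, probe A_52_P71789, chr6:52209015-52209074, minus strand: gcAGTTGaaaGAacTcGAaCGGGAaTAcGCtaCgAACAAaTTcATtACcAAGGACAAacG
Hoxb13, probe A_51_P290202, chr11:96057368-96057427, plus strand: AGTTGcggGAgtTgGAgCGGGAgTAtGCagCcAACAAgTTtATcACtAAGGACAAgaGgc
Hoxd13, probe A_51_P284571, chr2:74508005-74508064, plus strand: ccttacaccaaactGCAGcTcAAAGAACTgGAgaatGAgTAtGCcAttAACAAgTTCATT

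The Hoxa13 and Hoxb13 probes were identical at 40 of 58 aligned bases (69.0%), and the Hoxa13 and Hoxd13 probes at 33 of 46 (71.7%).

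The Hox genes detected in the intestinal RNA, in both genotypes, lay in paralogue groups up to 9. Transcripts of 23 of the 38 genes were well above background in both genotypes on both arrays, and all of these belong to paralogue groups 1 to 9. In groups 4 to 8, 15 of 15 genes were detected, and in groups 1 to 3, 5 of 8. In groups 10 to 13, which mark the hindgut, limbs and genital tract, 0 of 11 genes were detected. Well above background is the mark that the scanner software sets on a spot, here required in all 4 channels. Counted over probes, 27 of 51 met it (52.9%), beside 67.3% of all 41174 gene probes, and 20 of 51 met it in no channel, beside 23.4%.

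**Figure D1:**
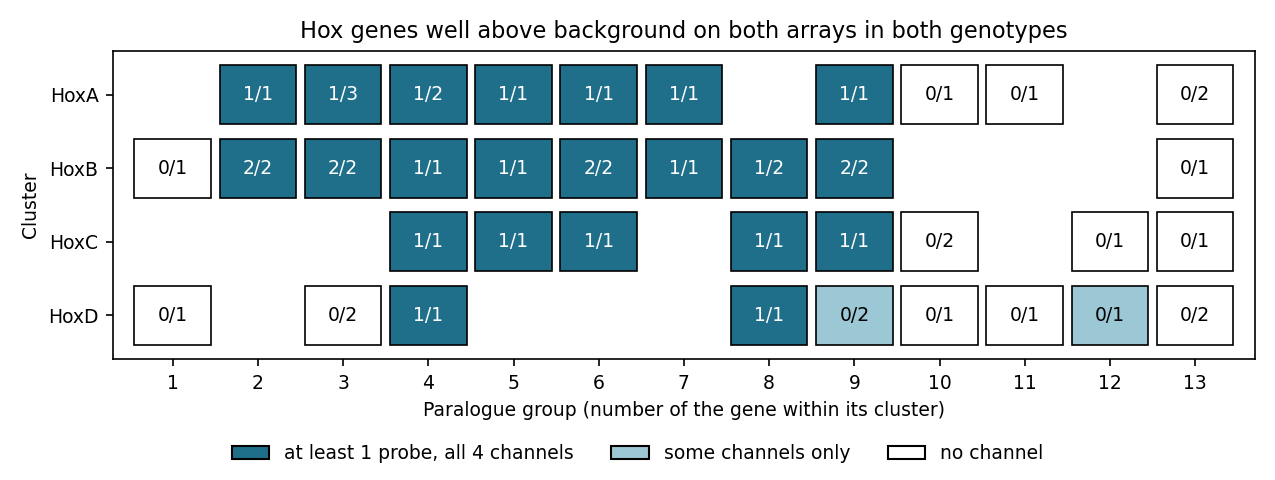
Each box is one Hox gene, placed by cluster (rows) and paralogue group (horizontal axis), with the number of its probes well above background in all 4 channels over the number of its probes; an empty place has no gene or no gene analysed here. Dark boxes are 22 of the 23 detected genes, pale boxes Hoxd9 and Hoxd12, and white boxes the 13 genes above background in no channel; no box to the right of group 9 is dark.

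The last detected gene belonged to group 9 in HoxA, HoxB and HoxC, and to group 8 in HoxD. In HoxB no gene between Hoxb9 and Hoxb13 was read, so the limit there is less closely placed. In HoxD, Hoxd9 passed with 1 of its 2 probes, in Cy3 alone on both arrays. HoxA was detected up to Hoxa9 (8 of 11 genes). HoxB was detected from Hoxb2 to Hoxb9 (8 of 10 genes), and HoxC from Hoxc4 to Hoxc9 (5 of 8 genes). In HoxD only Hoxd4 and Hoxd8 were detected (2 of 9 genes).

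On the chromosomes (mm9), detected HoxB probes ran over 78.1 kb (chr11:96137065-96215181) of the 171.0 kb that all HoxB probes cover, where Hoxb13 lies far from its neighbour Hoxb9. HoxC gave 51.8 kb (chr15:102814735-102866583) of 108.0 kb. HoxD gave a shorter stretch, 21.9 kb (chr2:74545021-74566925) of 95.1 kb, with the probes of Hoxd1 and Hoxd3 on one side and of Hoxd10, Hoxd11 and Hoxd13 on the other at background.

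No group 13 probe of any cluster was well above background in any channel. Hoxa13 and Hoxd13 are needed for the hindgut and for the digits, Hoxb13 for the tail and prostate, and Hoxc13 for hair. Mean spot signals of their 6 probes, before background correction, lay between 23.8 and 29.9 for the RNA labelled knockout in replicate 1 (Cy3) and between 45.4 and 50.4 for the RNA labelled wild type there (Cy5). In replicate 2 they lay between 43.2 and 54.1 for the RNA labelled knockout (Cy5) and between 25.7 and 30.4 for wild type (Cy3). The array's 153 negative control spots had medians of 23.7, 44.6, 44.9 and 24.3 in these channels, in the same order, with highest values of 36.7, 79.5, 73.6 and 33.7. The ranges of group 13 and of the negative controls thus overlapped in every channel. However, 95% of the control spots read no more than 26.4, 48.9, 47.9 and 26.4, in the same order. The highest group 13 value lay above this in every channel.

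Hoxa10 and Hoxa11, which pattern the uterus and, with Hoxd11, the forearm and kidney, gave the same picture. The Hoxa10 probe read 24.7 and 46.3 for the RNA labelled knockout in replicates 1 and 2, and 47.1 and 23.5 for wild type. The Hoxa11 probe read 26.5 and 47.1 for the RNA labelled knockout, and 44.6 and 28.0 for wild type. Within each channel these values did not exceed the highest negative control, and the Cy5 readings were above the Cy3 readings whichever genotype carried the dye. The detected Hoxa6 probe stayed below the highest control in Cy5 too, at 66.4 (wild type, replicate 1) and 64.8 (labelled knockout, replicate 2). The highest control therefore does not set undetected genes apart. Over the 13 probes of groups 10 to 13 that were above background in no channel, the median ratio of a spot to its local background was 1.04 for the RNA labelled knockout and 1.06 for wild type in replicate 1. In replicate 2 these medians were 1.07 and 1.04. A level of these genes below what the arrays resolve was not detectable here, so their absence was not shown.

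Hoxd12, a digit gene, and Hoxd9 were the genes at the posterior edge with a signal in some channels only. The Hoxd12 probe passed in the Cy3 channel of replicate 2 alone, where wild-type RNA read 33.7. Of the 2 Hoxd9 probes, A_52_P385584 passed in Cy3 on both arrays, at 33.2 for the RNA labelled knockout in replicate 1 and 37.6 for wild type in replicate 2, and A_51_P430728 passed nowhere. Where only 1 channel of an array passed for a Hox probe it was the Cy3 channel in every case, whichever genotype it held. The dye therefore moved with these partial detections, as it did over the whole array, where 74.8% and 75.6% of gene probes passed in Cy3 and 68.7% and 69.7% in Cy5.

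At the anterior end Hoxb1, a hindbrain gene whose probe was printed 10 times on each array, was above background in no channel, at 24.5 and 46.5 for the RNA labelled knockout and 46.6 and 24.8 for wild type. Hoxd1 and both probes of Hoxd3, which shapes the upper neck, were at background too.

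Probes of one gene did not always agree in detection. Hoxb8 was detected with probe A_51_P402686 and at background with A_52_P312043. Hoxa3 was detected with A_52_P447935, in Cy3 alone with A_51_P335169, and in no channel with A_52_P325300, which lies at chr6:52149657-52149716, between the probes of Hoxa4 and Hoxa5. For Hoxb2 both probes were detected, although A_51_P257789 (chr11:96211860-96211919) is placed on the minus strand and A_52_P15300 on the plus strand, the strand of the other HoxB probes. Which exons, UTRs or transcript forms these probes read was not analysed here.

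**Figure D2:**
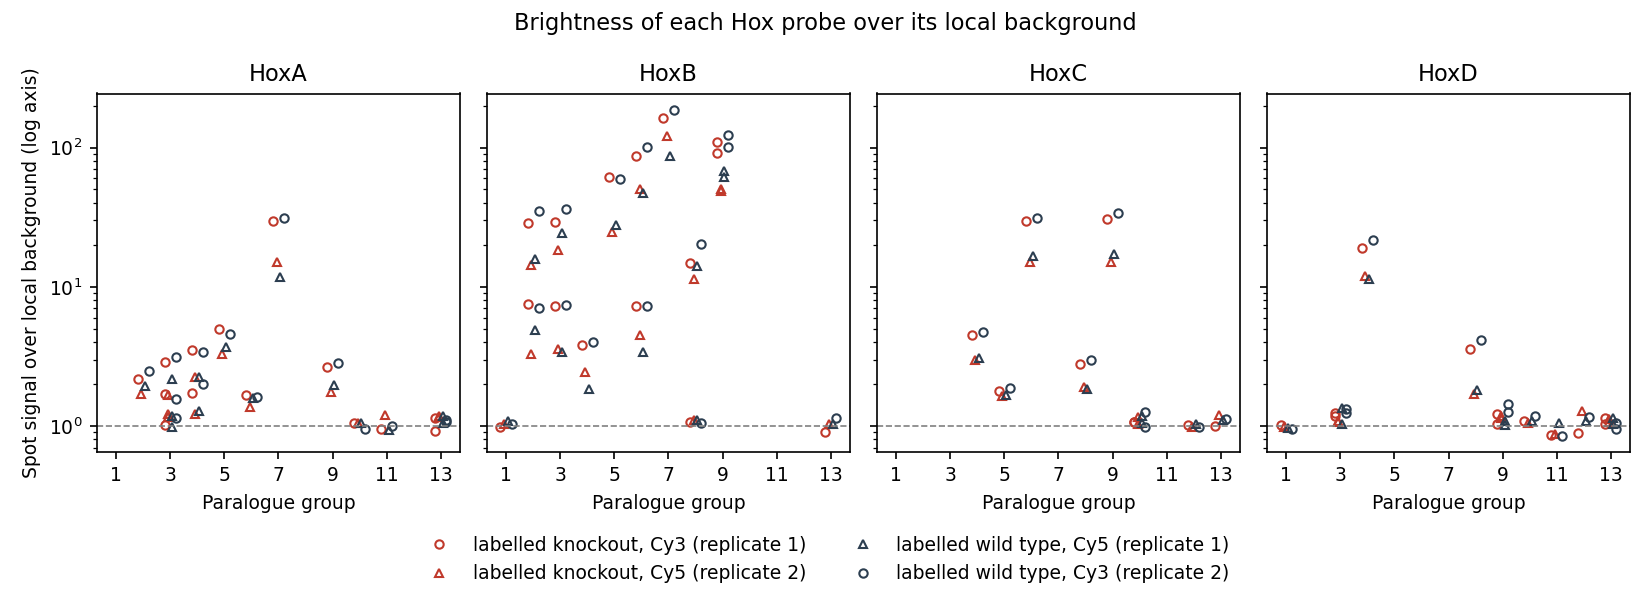
The vertical axis, on a log scale, is the mean spot signal of each Hox probe divided by its local background (no unit), the horizontal axis the paralogue group, with a panel per cluster; circles are Cy3 and triangles Cy5, red the RNA labelled knockout and dark blue the RNA labelled wild type. The dashed line marks a signal equal to background, near which all probes of groups 10 to 13 lie in the 4 channels, while the probes above background in all channels lie between 1.38 and 187.

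Promoter letters were read for the same genes from RefSeq (GRCm38.p6), which held 24 entries for 22 of the Hox genes, as the 250 bases before the annotated start. CDX factors, known upstream regulators of Hox genes, are known to prefer the letters TTTATG. Read on both strands, TTTATG stood in 5 of the 24 Hox promoters (20.8%), beside 10.8% of all 32851 promoters of that length. Among detected genes it was in 3 of 11, and among the other entries in 2 of 13. CCAAT was in 14 of 24 (58.3%, all promoters 33.8%) and TATAAA in 4 of 24 (16.7%, all promoters 12.4%), and none of the 3 motifs contains another on either strand. The median Hox promoter held 12.5 CpG pairs, against 6.0 over all promoters. A match in letters describes the sequence and was not measured as binding.

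A detected and an undetected gene of HoxA are printed to show how far the promoters within one cluster differ, with TTTATG on either strand in capitals. The pair does not stand for the other HoxA entries. In those, CpG pairs ran from 3 to 28 for detected genes and from 7 to 20 for the undetected Hoxa10 and Hoxa11. None of those entries held TTTATG. Hoxa7 (GRCm38.p6, chr6:52218574-52218823, minus strand) holds 2 such words and 7 CpG pairs, and Hoxa13 (chr6:52260881-52261130, minus strand) none and 35 CpG pairs.
Hoxa7: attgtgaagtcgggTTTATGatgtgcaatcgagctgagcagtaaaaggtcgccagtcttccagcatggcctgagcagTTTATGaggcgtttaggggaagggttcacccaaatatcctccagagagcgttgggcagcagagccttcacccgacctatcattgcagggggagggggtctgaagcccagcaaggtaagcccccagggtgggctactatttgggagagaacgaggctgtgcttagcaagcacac
Hoxa13: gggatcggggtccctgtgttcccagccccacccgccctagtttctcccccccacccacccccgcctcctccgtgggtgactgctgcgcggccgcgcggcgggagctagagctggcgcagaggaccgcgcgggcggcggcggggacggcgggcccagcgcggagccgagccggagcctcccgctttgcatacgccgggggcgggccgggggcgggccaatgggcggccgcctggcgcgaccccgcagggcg

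Between the genotypes no Hox gene was called different. Of the 28 Hox probes that entered the test, for 23 genes, 0 passed limma's test at an adjusted p of 0.05, beside 0 of 29091 probes over the whole array (0.0%). The smallest unadjusted p of a Hox probe was 0.0979 and the smallest adjusted p was 1.0 in limma. At an unadjusted p of 0.05 limma called 0 Hox probes, beside 1.24% of all tested probes. No Hox probe was at least 1.2-fold apart in the same direction on both arrays, a distance that 1.31% of all tested probes passed upward and 0.327% downward.

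For a probe to be tested, at least 1 genotype had to pass the background mark on both arrays. Values are log2 ratios in the direction labelled knockout over labelled wild type, followed by mean ± SD over the arrays (n = 2 in all cases). Nothing in the labels says that the arrays hold separate extracts, so a p-value reflects only how far these 2 hybridisations differ, and that difference may be technical. In tissue RNA, fewer cells of a type and less RNA per cell cannot be told apart.

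As a set, the Hox probes sat at the centre of the array. Their median log2 ratio was -0.04, against -0.01 over all tested probes, and the means ran from -0.24 to 0.29, the largest corresponding to 1.22-fold. A ratio above 0 on both arrays was found for 6 of 28 probes (21.4%), beside 17.3% of all tested probes. Among these were the probes of Hoxa7, Hoxb4, Hoxb7 and both of Hoxb6. A ratio below 0 on both was found for 5 (17.9%), beside 18.7%, the probes of Hoxa3, Hoxa9, Hoxc9 and both of Hoxb2. With the ratios processed by the scanner software these counts were 4 (beside 20.7%) and 7 (beside 21.5%), and limma again called 0 Hox probes, beside 0.282% of all. They were 5 and 8 with outlier-marked spots kept, and 4 and 5 with median centring in place of loess.

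The remaining 17 Hox probes (60.7%) had opposite signs on the arrays, beside 63.8% of all tested probes. A ratio that keeps to the dye changes sign when the dyes are swapped. Of these 17 probes, 12 were brighter in Cy5 on both arrays and 5 in Cy3, which is 42.9% and 17.9% of the Hox probes, beside 30.0% and 33.8% of all tested probes. Across probes the arrays correlated at -0.34 over the 28 Hox probes and -0.38 over all 29091, given as a description, since probes of an array share its labelling and hybridisation. The part of the dye in single Hox ratios was not tested, because a dye term would use up the only residual degree of freedom.

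**Figure D3:**
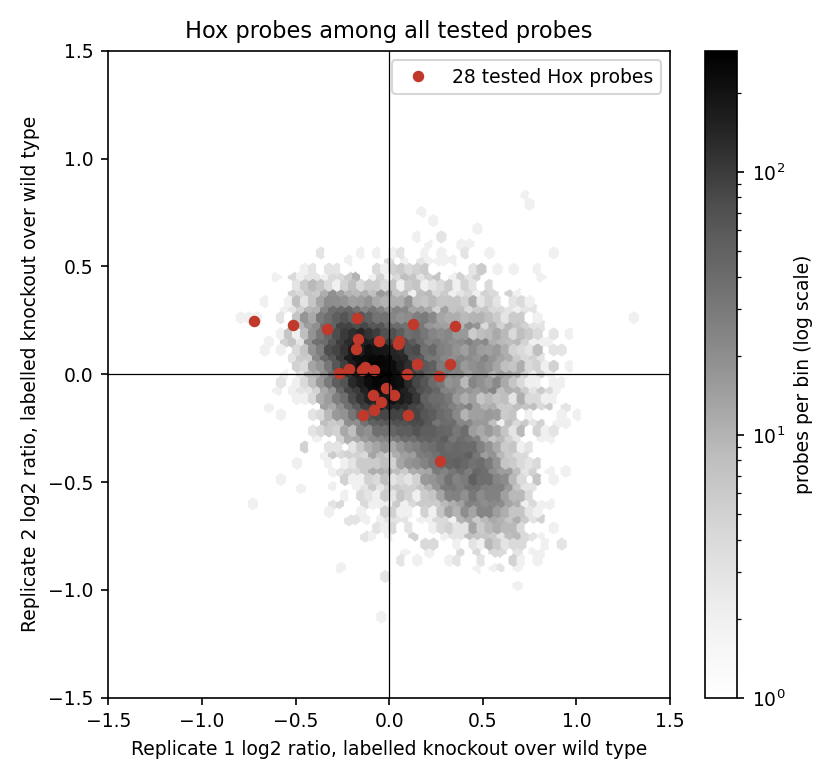
Log2 ratio of each tested probe, labelled knockout over labelled wild type, on replicate 1 (horizontal axis) and replicate 2 (vertical axis); grey bins count all 29091 tested probes on a log scale, red points are the 28 Hox probes, and 10 probes beyond 1.5 on either axis are not drawn. The Hox points lie near the centre, 17 of them in the upper left and lower right fields where the arrays differ in sign.

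Among the anterior genes, groups 1 to 4, the median log2 ratio was -0.05 over 12 probes, with 2 above and 3 below 0 on both arrays. Hoxa3, which forms the thymus and parathyroid, was at -0.14 and -0.19 on replicates 1 and 2, a mean of -0.16 ± 0.04. Its detected probe read 75.4 and 88.9 for the RNA labelled knockout and 99.8 and 86.5 for wild type. After correction the labelled knockout was the dimmer RNA on both arrays, and limma's 95% interval of -0.53 to 0.20 included 0.

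Both probes named for Hoxb2, a hindbrain gene, were below 0 on both arrays. The plus-strand probe A_52_P15300 had a mean of -0.08 ± 0.06. A_51_P257789, placed on the strand opposite to the other HoxB probes, was at -0.08 and -0.17 (-0.12 ± 0.06). Whether A_51_P257789 reads Hoxb2 RNA was not analysed here. Hoxb4, known for expanding blood stem cells, was on the other side of 0 on both arrays. Its probe read 102.7 and 101.1 for the RNA labelled knockout and 91.1 and 92.5 for wild type, which gave 0.33 and 0.05 (0.19 ± 0.20). For Hoxb4 the mean was smaller than the SD between arrays, and for Hoxa3 and Hoxb2 it was larger.

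The probes of Hoxb3, a hindbrain and pharyngeal gene, did not share a direction. Probe A_51_P460643 was at 0.27 and -0.01 (0.13 ± 0.19). The other probe, A_52_P312467, was at -0.51 and 0.23 (-0.14 ± 0.52). For both probes the mean was smaller than the SD between arrays.

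Hoxd4, a vertebral patterning gene, read 512.5 and 487.0 for the RNA labelled knockout and 539.0 and 586.4 for wild type. It was at -0.22 and 0.03 (-0.09 ± 0.17), with opposite signs on the arrays. Hoxa2, both Hoxa4 probes, the other Hoxb2 probe and Hoxc4 had means between -0.08 and 0.05. Hoxc4 is needed for the muscle of the oesophagus, and extra Hoxa4 is known to enlarge the colon.

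Central genes, groups 5 to 8, had a median of 0.02 over 12 probes, with 4 above 0 on both arrays and 0 below 0 on both. Hoxa7, a gene of the thoracic region, had the largest mean of the Hox probes with this processing. Its probe (chr6:52165626-52165685) read 771.4 and 688.9 for the RNA labelled knockout and 536.9 and 719.0 for wild type. The log2 ratios were 0.35 and 0.22, a mean of 0.29 ± 0.09 with a limma 95% interval of -0.08 to 0.66, and its adjusted p in limma was 1.0. In the scanner software's own ratios the same probe was at 0.09 and 0.38, a mean of 0.24, while Hoxb4 reached 0.29 there and Hoxa4 probe A_52_P638382 was at -0.31.

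Hoxb7, whose promoter is widely used to mark kidney collecting ducts, read 4687 and 4990 for the RNA labelled knockout and 3914 and 5231 for wild type. This gave 0.13 and 0.24 (0.18 ± 0.08). Both Hoxb6 probes were above 0 on both arrays. A_52_P648750 was at 0.15 and 0.05 (0.10 ± 0.07) and A_51_P232207 at 0.05 and 0.16 (0.11 ± 0.07). With the scanner software's ratios, Hoxb7 and Hoxb6 probe A_51_P232207 changed sign on replicate 1, to -0.08 and -0.10.

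Hoxb8, a gene of the spinal cord and of a blood cell lineage, differed most between the arrays. Its detected probe read 386.7 and 535.9 for the RNA labelled knockout and 584.9 and 544.1 for wild type. The ratios were -0.72 and 0.25, a mean of -0.24 ± 0.68 with a limma 95% interval of -0.99 to 0.52. The low value stood on replicate 1 alone, where the knockout carried Cy3.

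Hoxc6, a thoracic gene, was at -0.27 and 0.01 (-0.13 ± 0.19). Hoxa5, known for the maturation of lung and gut, and Hoxb5, known from enteric neural crest cells, are the central genes most often tied to gut development. Their means were 0.05 ± 0.31 and -0.04 ± 0.08, with opposite signs on the arrays for both. Hoxa6, Hoxc5, Hoxc8 and Hoxd8 had means between -0.06 and 0.05.

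Group 9 formed the posterior edge of the detected block, with 4 tested probes and a median of -0.05. Hoxa9, a blood progenitor gene, read 69.5 and 79.0 for the RNA labelled knockout and 82.3 and 70.8 for wild type. It was at -0.02 and -0.06 (-0.04 ± 0.03). Hoxc9, which acts in thoracic motor neurons, read 830.5 and 653.1 for the RNA labelled knockout and 785.1 and 865.1 for wild type, and gave nearly equal ratios of -0.09 and -0.09 (-0.09 ± 0.01). The mean of Hoxc9 was larger than its SD, yet its limma 95% interval of -0.45 to 0.27 included 0, because limma draws each SD towards that of all probes.

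Hoxb9, a rib patterning gene, was read by a pair of probes. A_52_P98462 read 3084 and 2403 for the RNA labelled knockout and 2940 and 2964 for wild type, and was at -0.08 and 0.02 (-0.03 ± 0.07). A_52_P973575 was at -0.33 and 0.21 (-0.06 ± 0.39). No group 9 probe was above 0 on both arrays, and limma called 0 of the 4.

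**Figure D4:**
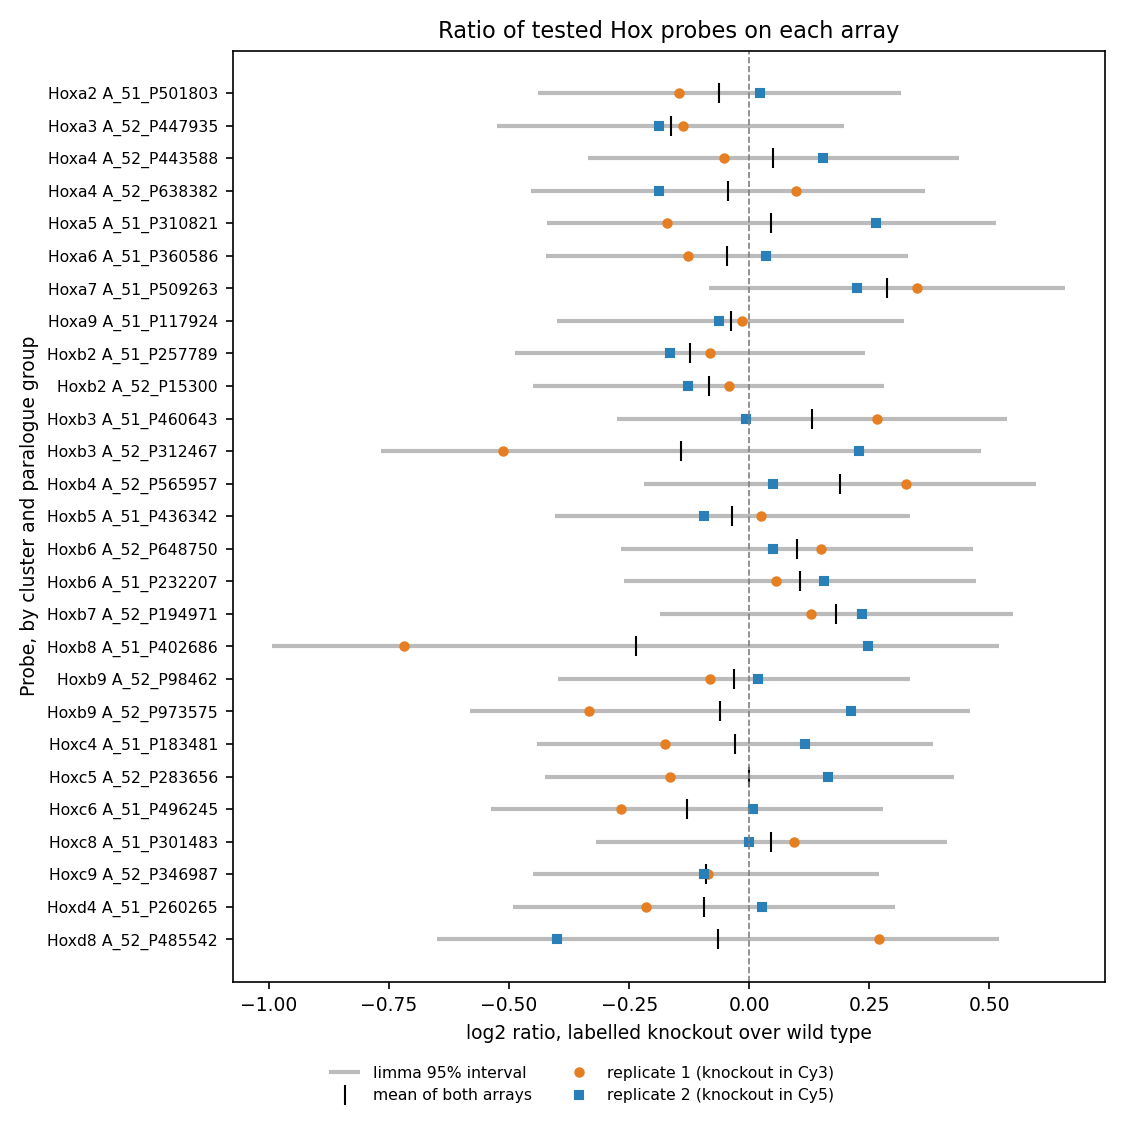
The horizontal axis is the log2 ratio, labelled knockout over labelled wild type; each row is one of 27 of the 28 tested Hox probes in cluster and paralogue order, with circles for replicate 1, squares for replicate 2, a tick for their mean and a grey bar for limma's 95% interval. All 27 bars include 0, and Hoxa7 has the mean farthest to the right at 0.29.

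These intervals describe single probes and are not adjusted for the number of probes tested. How small a change limma would have called does not follow from them. Even Myh8, a skeletal muscle gene at 2.10 ± 0.02, was not called, with an adjusted p of 0.69 in limma. The limma 95% intervals of the 28 probes reached 0.36 to 0.757 to either side of the mean, with a median of 0.378, and the outermost bounds were -0.993 for Hoxb8 and 0.658 for Hoxa7. For each gene, differences within its own interval were not excluded. The SD between arrays had a median of 0.117 over the Hox probes and 0.162 over all tested probes, and the mean was smaller than its own SD for 18 of the 28 probes.

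By cluster, the median log2 ratio was -0.04 in HoxA (9 probes), -0.03 in HoxB (12 probes), -0.03 in HoxC (5 probes) and -0.08 in HoxD (2 probes). Non-coding transcripts of the clusters, looked up after their names had been seen, gave ratios near 0 too with this processing. Hoxaas2 was at 0.04 ± 0.01, Hoxaas3 at -0.05 ± 0.10 and Hoxd3os1 at 0.01 ± 0.01 with probe A_51_P269053. These probes were dim, with Hoxaas2 at 33.9 and 59.0 for the RNA labelled knockout and 57.1 and 39.5 for wild type. In the scanner software's ratios Hoxaas2 was at -0.47 and 0.08, Hoxaas3 at 0.03 and -0.94, and Hoxd3os1 at 0.21 and -0.19. Their small SDs therefore do not show that these transcripts were unchanged. Hottip, which lies beyond Hoxa13, was above background in no channel.

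The genes that work with or upstream of Hox proteins showed no call either. TALE homeobox proteins (Pbx, Meis, Pknox and Tgif) bind DNA together with Hox proteins. All 11 were tested, limma called 0, and 0 were on one side of 0 on both arrays, beside 16.9% above and 18.1% below among 19006 genes. Their medians of 0.08 on replicate 1 and -0.19 on replicate 2 lay in opposite genotype directions, which is the same dye direction. Of the 8 ParaHox and Evx genes, 4 were tested and Cdx4, Pdx1, Gsx2 and Evx1 were above background in no channel. Cdx2, the master regulator of intestinal epithelium, was at -0.33 and -0.02 (-0.17 ± 0.22), and Cdx1 at 0.05 and 0.01 (0.03 ± 0.03). Evx2, which sits next to Hoxd13, was at 0.06 ± 0.03, and at -0.38 and 0.37 in the scanner software's ratios.

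All 25 Polycomb and trithorax genes were tested, with a median of 0.00 and 19 in opposite directions on the arrays, beside 63.8% of all tested probes. Phc1, a subunit of Polycomb repressive complex 1, was at 0.29 ± 0.00, Ezh1, a histone methyltransferase, at 0.20 ± 0.10, and Eed, a core subunit of Polycomb repressive complex 2, at -0.18 ± 0.05; limma called 0 of the list. Of the retinoic acid genes, 16 were tested, limma called 0, and 2 were above 0 on both arrays, beside 16.9% of 19006 genes. These were Cyp26b1, which breaks retinoic acid down, at 0.16 ± 0.19, and the receptor Rxra at 0.01 ± 0.01.

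Tissue markers were read for the layers of the gut wall. All 11 epithelial and all 12 smooth muscle genes on the array were tested, 16 of 17 mesenchymal genes and 12 of 15 enteric neuron and glia genes. Beside this, 19006 of the 26582 gene names of the array had a tested probe, and so did all 15 skeletal muscle genes. These counts alone therefore do not show which layers the RNA held. Limma called 0 in each of these lists, and their medians were -0.06, -0.02, -0.04 and -0.07 in that order. Mesenchymal genes were below 0 on both arrays in 4 of 16 cases, beside 18.1% of 19006 genes, and above 0 on both in 0, beside 16.9%. The 4 were Col3a1, a fibrillar collagen, at -0.17 ± 0.01, Hhip at -0.10 ± 0.02, Bmp4 at -0.16 ± 0.16 and Nkx2-3 at -0.27 ± 0.34. Nkx2-3, a factor of gut mesenchyme, was named after its values were seen. In smooth muscle, Synpo2 was at 0.34 ± 0.08, and in the enteric nervous system, Vip, a neuropeptide, at -0.27 ± 0.21 and Hand2 at 0.10 ± 0.10. The Hox median lay within the range of these layers, whose part in the Hox values was not tested.

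Markers of gut region gave a broader spread than the Hox genes. Of the proximal small intestine list 11 genes were tested, with a median of 0.00. On both arrays 4 were above and 4 below 0, beside 16.9% and 18.1% of 19006 genes. Lct, the milk sugar enzyme lactase, was at 1.41 ± 0.61 and Fabp1, a fatty acid binding protein, at 1.28 ± 0.01. In the distal small intestine list (11 genes, median -0.04), Fgf15, an ileal hormone, was at -0.49 ± 0.23, Slc51b, a bile acid exporter subunit, at -0.13 ± 0.08 and Insl5 at 0.11 ± 0.07. In the colon list (11 genes, median 0.02), Slc26a3, a chloride exchanger, was at 0.20 ± 0.08, Mettl7b at -0.19 ± 0.08 and Saa1 at -0.55 ± 0.64. Limma called 0 in each regional list, and 2 of the proximal list with the scanner software's ratios, beside 0.282% of all tested probes. Genes of proximal, distal and colonic lists were thus all measured in RNA whose segment the labels do not state.

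**Figure D5:**
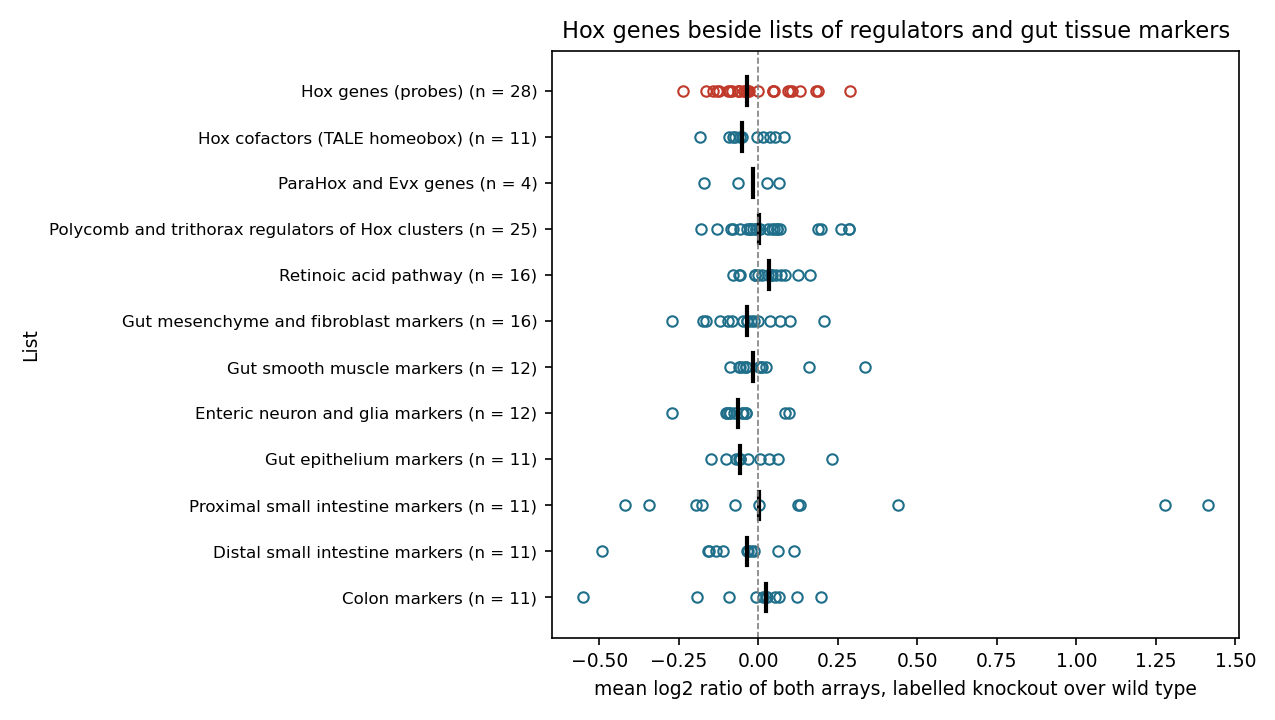
The horizontal axis is the mean log2 ratio of both arrays, labelled knockout over labelled wild type; red circles are the 28 tested Hox probes and blue circles the brightest tested probe of each gene in the lists, with the number of points beside each name and a black bar at the median. Hox means lie between -0.24 and 0.29, while Fabp1 and Lct of the proximal list lie at 1.28 and 1.41.

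A few facts of the arrays bear on all of these values. Gpcpd1 itself was above background with all 4 of its probes and higher in the RNA labelled knockout with 3, with mean log2 ratios from -0.13 to 0.68. The probes check the labels only where they lie in the deleted part, and the genotype directions given here rest on the dye labels. Of 15 skeletal muscle genes, 9 were above 0 on both arrays, beside 16.9% of 19006 genes. The list median was 0.26 (Myh8 at 2.10 ± 0.02, Myh4 at 2.18 ± 0.23). The kidney gene Kap was at 1.42 ± 0.07, and at 2.44 in the scanner software's ratios. The male gland genes Svs5 and Svs4 passed the background mark only in wild-type RNA, on both arrays, so their ratios are not given. Limma called 0 genes of these 3 lists, and 8, 1 and 2 with the scanner software's ratios, where it called 0.282% of all tested probes. The part of such RNA in the Hox values was not tested. No spot was saturated on either array.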

How the data were processed

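Intestinal total RNA was measured on 2 dye-swapped dual-colour arrays (Agilent design 014868), each holding both genotypes. The authors' deposited scanner files give, per the file headers, intensity values from Feature Extraction 11.5.1.1 (9.5 in the submitters' processing notes), as mean spot brightness, median local background and a processed intensity that the software background-subtracted, detrended over the surface and dye-normalized. The deposited log10 ratio divides each array's processed Cy5 by its processed Cy3, and a deposited p-value column the software's error-model p of a spot. The deposited value table holds the same log10 ratios rounded and not turned for the dye swap.

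In R 4.3.3 with limma 3.58.1, outlier-marked spots (133 and 222 of 43379 gene spots) were left out, background was corrected with normexp (offset 50), loess was run within each array (control spots at weight 0), spots of a probe were averaged, and signs were turned to labelled knockout over wild type. The 29091 probes with at least 1 genotype well above background on both arrays were fitted with lmFit and eBayes (mean against 0, 1 residual and 3.04 prior degrees of freedom, Benjamini-Hochberg at 0.05). The software's own log10 ratios, on the log2 scale and fitted the same way, are the alternative printed beside it. The arrays are few, and their number limits every precision given. Gene lists take the brightest tested probe of each gene.

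Members and lists were chosen with earlier results of these data known. Values on each array were to be given for Hox probes at least 1.2-fold apart in one direction on both arrays, for the 12 others with the largest absolute mean, and for all tested probes of groups 9 to 13, with up to 3 members per other list by the smaller of the arrays' ratios; signals of single undetected probes and the cluster non-coding transcripts were added after values were seen. Alternatives were the software's ratios, the deposited table, other background corrections and centring, a surface correction, marked spots kept, no filter on dim probes, the brightest probe per gene, and each array alone. Values of some single items are not reported here.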

Additional observations from a re-analysis of the deposited data

How the results depend on the processing

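Limma called 0 Hox probes under all 9 alternatives that allow a test, with 0 at an unadjusted p of 0.05, and 23 Hox genes were detected with either array alone or with at least 1 array. Over all tested probes limma called 82 with the software's ratios and with the deposited table, 30 with a normexp offset of 0, 5 after surface correction and 0 otherwise. The median Hox log2 ratio ran from -0.06 to 0.0009 (no filter on dim probes), and was 0.03 without replicate 1 and -0.07 without replicate 2. Without the filter, which adds the undetected probes, 11 of 51 were above and 8 below 0 on both arrays, against 6 and 5 of 28. With marked spots kept, 8 were below 0, where 27.3% of all probes were below 0 on both arrays against 18.7%; the cause was not tested. With 1 array left out, 11 to 18 probes were above and 10 to 17 below 0, since 1 array suffices, and no test is possible. Of the 28 probes, 20 kept the sign of their mean under every alternative they entered that uses both arrays (8 above, 12 below 0). The exceptions there are Hoxa4 (both probes), Hoxa5, Hoxa9, Hoxb5, Hoxb9 probe A_52_P98462, Hoxc5 and Hoxd8. With 1 array left out, each of the 17 probes with opposite signs on the arrays, Hoxb8, Hoxd4 and both Hoxb3 probes among them, changes sign under one of the omissions. Each array holds both genotypes and gives 1 ratio, so the test of the mean ratio against 0 already pairs the genotypes within an array. No further pairing was used. Signal over background limits the genes of groups 10 to 13, whose ratios could not be read.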
